A study of Rattus norvegicus and Mus musculus with 10 samples.

Results

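Plasmacytoid dendritic cells (pDCs) of the mouse skull dura were examined in mice with experimental autoimmune encephalomyelitis (EAE) and in naive mice. The cells are those to which the authors gave the cluster name pDC. They number 174 of the 7355 annotated mouse cells, with 126 in the EAE library and 48 in the naive library, in a series that annotates 28542 mouse and rat cells in all. EAE is a disease of the central nervous system in which autoreactive T cells attack myelin, used as a model of multiple sclerosis. The EAE library holds dural leukocytes pooled from 3 C57BL/6 mice with actively induced disease, taken at its peak. The naive library holds dural leukocytes pooled from 4 unimmunized C57BL/6 mice. Cells of both were sorted as CD45+ and negative for a CD45 antibody given into the blood (CD45iv-), a gate that keeps leukocytes lying outside the vessels. The expression libraries and the immunoglobulin receptor libraries were grouped by title, because the condition field carries the disease label for all of them. Each condition is 1 library from 1 pool, so no test between conditions was possible, and the intervals below cover counting error only.

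The dura is the outermost layer of the meninges, under the skull and its marrow. pDCs are dendritic cells that take nucleic acids into endosomes, read them with the receptors TLR7 and TLR9, and can answer with large amounts of type I interferon. The transcription factor TCF4 (E2-2) sets and keeps their identity, and loss of it lets them drift towards conventional dendritic cells. Unlike other dendritic cells they have a plasma cell-like secretory apparatus, and part of them carry marks of lymphoid ancestry, such as Dntt, the template-free DNA polymerase of antigen receptor joining, and rearranged immunoglobulin gene segments.

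The EAE pDCs gave 1278821 UMIs (unique molecular identifiers, 1 for each captured RNA molecule), with 5874, 9453 and 36282 UMIs in the lowest, the median and the highest cell. The naive pDCs gave 358535 UMIs, with 4046, 7364 and 15340 UMIs. A median of 2775.5 genes was detected per EAE pDC and 2292 per naive pDC, and mitochondrial genes took 3.26% of the UMIs in EAE pDCs and 2.16% in naive pDCs. The libraries differed more outside this cluster, since annotated cells had a median of 11743 UMIs in EAE dura and 4163.5 in naive dura, and no annotated EAE cell was below 5722 UMIs. The 2 libraries shared 8 barcode sequences, 0 of them on a pDC. Levels are given as CPM, the UMIs of a gene summed over the cells of a group and scaled to a total of 1e+06 UMIs for that group.

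The label was checked against its markers, which were high in both libraries. All 3 of Siglech (an inhibitory sialic acid-binding receptor of mouse pDCs), Tcf4 and Irf8 (a factor of dendritic cell development) were detected in 118 of 126 EAE pDCs and 43 of 48 naive pDCs, and each of the remaining cells had 2 of the 3. Siglech stood at 1361 CPM in EAE pDCs and 1771 CPM in naive pDCs, against 4.26 CPM in the other EAE cells and 3.55 CPM in the other naive cells. At least 3 Siglech UMIs were found in 121 of 126 EAE and 46 of 48 naive pDCs, and in 22 of 4453 other EAE cells and 6 of 2728 other naive cells. Tcf4 stood at 870 CPM in EAE pDCs and 968 CPM in naive pDCs, Irf8 at 1268 CPM in EAE pDCs and 918 CPM in naive pDCs. Bst2, the antiviral tetherin used as the pDC antigen PDCA-1, was the most abundant of these markers, with 4255 CPM in EAE pDCs and 4700 CPM in naive pDCs. Siglech, Tcf4, Irf8, Bst2, Ccr9, Cox6a2, Klk1, Pacsin1, Runx2, Bcl11a, Irf7, Lag3 and Lair1 were highest in pDCs of the 19 clusters in both libraries. Spib and Ly6d, also taken as pDC markers, were highest in pDCs in EAE dura only. In naive dura Spib stood at 218 CPM in pDCs, 361 CPM in BcProg and 240 CPM in Bc. Ly6d stood there at 1782 CPM in pDCs, 2492 CPM in Bc and 1826 CPM in BcProg. Since clusters are made from expression, these levels describe the cells and support nothing further.

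**Figure D1:**
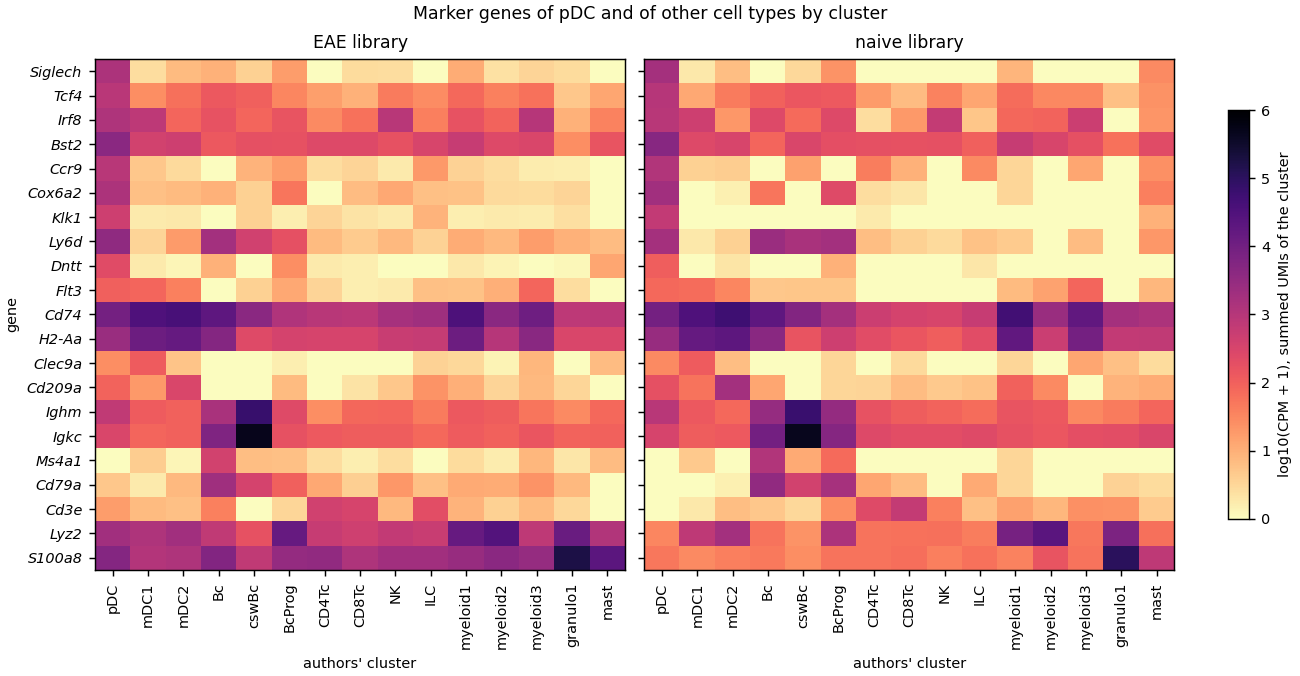
Heat map of log10(CPM + 1) for marker genes (rows) in pDCs and 14 other clusters of the authors (columns), EAE dura at the left and naive dura at the right, 1 library each, darker for higher. Siglech, Klk1 and Cox6a2 are dark in the pDC column of both libraries, with 1361 CPM of Siglech in EAE pDCs and 1771 CPM in naive pDCs, and Ms4a1 is at 0 there.

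Markers that define neighbouring cell types were scarce but present. Ms4a1, which encodes the B cell antigen CD20, had 0 UMIs in either group of pDCs, which allows up to 3 UMIs in each. Cd79a, the signalling chain of the B cell receptor, had 5 UMIs in EAE pDCs and 0 in naive pDCs. Over a fixed list of 23 defining markers of T, NK, B, mast, conventional dendritic and innate lymphoid cells, neutrophils and macrophages, macrophage markers summed to 511 UMIs in EAE pDCs and 12 in naive pDCs. Neutrophil markers summed to 286 UMIs in EAE pDCs and 6 in naive pDCs, and T cell markers to 104 UMIs in EAE pDCs and 1 in naive pDCs. Markers of conventional dendritic cells summed to 161 UMIs in EAE pDCs and 74 in naive pDCs. At least 3 such UMIs were held by 83 of 126 EAE cells and 11 of 48 naive cells, and at least 20 by 10 EAE cells and 0 naive cells. No doublet caller was run, and each comparison was repeated without these cells. The filter counts markers of these cell types, so lower values of their lists in the kept cells are in part built in. Of its markers, Clec9a stood at 25.0 CPM in EAE and 27.9 CPM in naive pDCs. Cd209a stood at 91.5 CPM in EAE and 179 CPM in naive pDCs. Both genes had rank 2 in pDCs among the clusters of each library. The filter may thus also remove pDCs by RNA of their own, which was not tested.

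The genes that set pDCs apart most from the rest of the dura, by the smaller of the 2 within-library ratios among 1262 genes at 100 CPM or more in both, were not all textbook markers. The list of 20 was led by Klk1, a tissue kallikrein protease, at 454 CPM in EAE pDCs and 650 CPM in naive pDCs, with under 1 CPM in the other cells of each library. Next came the unnamed transcript Gm21762, at 228 CPM in EAE pDCs and 563 CPM in naive pDCs, and Sh3bgr, at 135 CPM in EAE pDCs and 377 CPM in naive pDCs. Genes best known from muscle were among the leaders. Cox6a2, the heart and muscle isoform of a cytochrome c oxidase subunit, stood at 1335 CPM in EAE pDCs and 1936 CPM in naive pDCs, and Atp2a1, a calcium pump of fast muscle, at 175 CPM in EAE pDCs and 218 CPM in naive pDCs. Lefty1, a secreted inhibitor of Nodal signalling, stood at 174 CPM in EAE pDCs and 198 CPM in naive pDCs. The others were Cd300c, Dntt, Paqr5, Ccr9, Pacsin1, Smim5, Lag3, Tcf4, Arhgap27os2, Bcl11a, Tsc22d1, Lrp8, Spns3 and Siglech itself.

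The share of pDCs depended on what it was a share of. Among all annotated cells, pDCs made up 2.75% in EAE dura (126 of 4579, 95% Clopper-Pearson interval 2.30 to 3.27%) and 1.73% in naive dura (48 of 2776, 1.28 to 2.29%). Among cells with at least 5722 UMIs, the lowest total of any annotated EAE cell, the order turned: the share was 2.75% in EAE dura and 5.95% in naive dura (44 of 739, 4.36 to 7.91%). Among the dendritic clusters (mDC1, mDC2, myeloid3 and pDC) it was 11.3% in EAE dura (126 of 1111, 9.54 to 13.4%) and 14.7% in naive dura (48 of 327, 11.0 to 19.0%), with intervals that overlap. No direction is therefore given for the abundance of pDCs.

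Further EAE barcodes resembled pDCs without having a cluster name. Of 421 unannotated EAE barcodes, 91 (21.6%, 17.8 to 25.9%) held at least 3 Siglech UMIs, against 1 of 350 unannotated naive barcodes (0.286%, 0.00723 to 1.58%). Of these 91 barcodes, 89 had all 3 markers, and their Siglech count ranged from 3 to 33 with a median of 15. With them, the share of pDCs became 4.34% of 5000 EAE barcodes and 1.57% of 3126 naive barcodes. Their summed profile was within 2-fold of the annotated EAE pDCs for 4010 of 4093 genes. They come from the EAE library and were picked by Siglech after its values were seen, so they are no replicate of it.

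The EAE and naive pDCs were then compared across 4093 genes with a mean of at least 30 CPM. Past a 2-fold line, 218 genes were higher in EAE pDCs, or 5.33% of those compared, and 234 genes were lower, or 5.72%, which makes 11.0% in either direction. The median log2 ratio of EAE over naive was -0.04 over all compared genes. Genes inside the 2-fold line are called level, which does not show that they were equal. Gene lists, chosen with earlier results of these data known, are described below by these counts and by their median log2 ratio. Each list count is to be read against the shares of 5.33% higher and 5.72% lower. A count near them is not a result about the list.

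**Figure D2:**
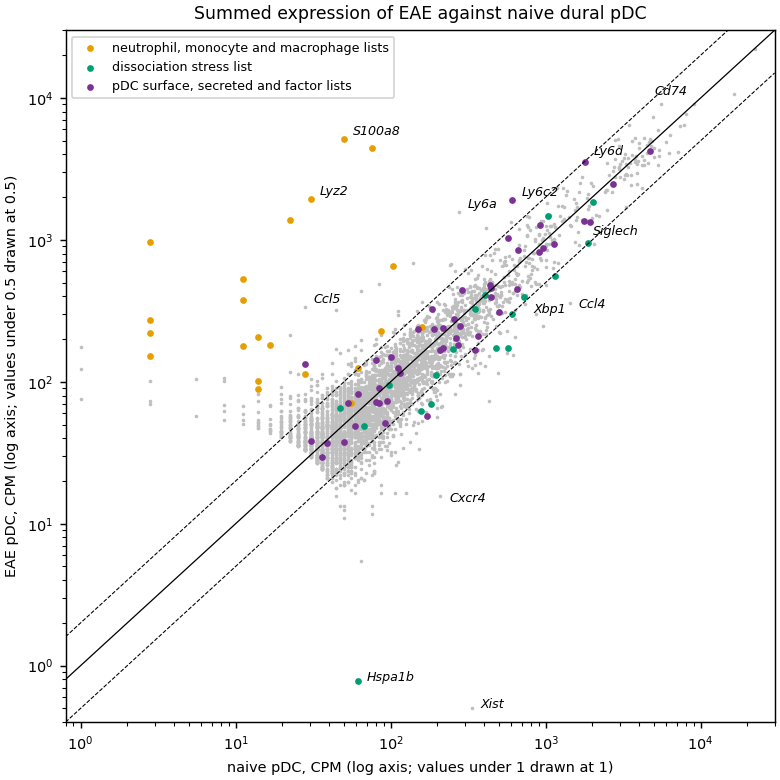
CPM in EAE pDCs (vertical, log axis) against naive pDCs (horizontal, log axis) for 4093 genes, with the line of equality and dashed lines at 2-fold; values under 0.5 CPM in EAE or under 1 CPM in naive pDCs are drawn at those levels. Neutrophil, monocyte and macrophage genes (orange) such as S100a8 lie mostly above the upper line, genes of the dissociation stress list (green) lie mostly below equality, and pDC list genes (purple) lie near it.

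Genes of pDC identity were close to level between EAE and naive pDCs. Of 32 compared genes for pDC surface and secreted proteins, 1 was at least 2-fold higher and 1 at least 2-fold lower in EAE pDCs, with a median log2 ratio of -0.02. These counts are not far from the shares over all compared genes, 5.33% higher and 5.72% lower. Siglech was 1.30-fold lower in EAE pDCs (95% interval 1.19 to 1.43), Ccr9, a receptor for the gut and thymus chemokine CCL25, was 1.20-fold lower (1.07 to 1.34), and Bst2 was 1.10-fold lower (1.05 to 1.17). Per 10000 UMIs, Siglech ran from 0 over a median of 14.6 to 29.6 in EAE cells and from 1.40 over 18.1 to 32.1 in naive cells. The 2 ranges overlap almost in full. The gene past the line upwards was Ly6c2, described below, and the gene past it downwards was Tex2, at 57.1 CPM in EAE pDCs and 173 CPM in naive pDCs.

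Among 16 transcription factors of the pDC programme, 1 was past 2-fold higher and 1 past 2-fold lower, with a median log2 ratio of -0.18. Spi1, which encodes the myeloid factor PU.1, stood at 133 CPM in EAE pDCs and 27.9 CPM in naive pDCs, 4.77-fold higher (2.53 to 10.1). It was detected in 57.1% of EAE pDCs and 20.8% of naive pDCs. Drawn down to 1000 UMIs per cell, the Spi1 shares were 10.9% of EAE pDCs and 2.57% of naive pDCs, against 2.45% of EAE and 0.193% of naive T and NK cells, which should lack it. These 727 EAE and 1108 naive T and NK cells had median depths of 7332 UMIs in EAE dura and 4026.5 UMIs in naive dura. Without the cells that held 3 or more UMIs of other cell types, the log2 ratio of Spi1 was 2.41, against 2.25 with all cells. Runx2, which helps pDCs leave the bone marrow, stood at 167 CPM in EAE pDCs and 351 CPM in naive pDCs, 2.10-fold lower (1.67 to 2.63). Tcf4 was 1.11-fold lower (0.983 to 1.26), Irf8 was 1.38-fold higher (1.23 to 1.56), and Bcl11a, Spib, Zeb2 and Ikzf1 also stayed inside 2-fold.

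Genes of conventional dendritic cells had no common direction. Of 12 compared, 2 were higher and 2 lower, with a median log2 ratio of 0.02, which was -0.71 without the cells holding 3 or more UMIs of other types. That filter counts markers of conventional dendritic cells such as Clec9a and Cd209a, so part of this fall is built in. Such markers were held by 63 of 126 EAE and 26 of 48 naive pDCs. Clec10a, a galactose-binding lectin of conventional type 2 dendritic cells, stood at 295 CPM in EAE pDCs and 112 CPM in naive pDCs, 2.64-fold higher (1.90 to 3.76). Its median per 10000 UMIs was 2.36 in EAE cells and 0.513 in naive cells, and 106 of 126 EAE cells lay above the naive median. Id2, an antagonist of TCF4 that favours conventional dendritic cells, was low in both but just past 2-fold higher in EAE pDCs. It stood at 57.9 CPM in EAE pDCs and 27.9 CPM in naive pDCs, from 74 and 10 UMIs. Notch2 stood at 11.7 CPM in EAE pDCs and 75.3 CPM in naive pDCs, and Klf4 at 58.7 CPM in EAE pDCs and 120 CPM in naive pDCs. Notch2 and Klf4 were thus lower past 2-fold, and in T and NK cells their log2 ratios were -3.14 and -1.38. The Notch2 shares at that depth, 1.24% of EAE and 6.54% of naive pDCs, lay close to the 0.915% of EAE and 7.89% of naive T and NK cells.

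A difference that spread over most cells was found in genes of the Ly6 family, small lipid-anchored surface proteins encoded side by side on chromosome 15. Ly6a, which encodes Sca-1 and responds to interferons, lies at chr15:74994877-74998031 (mm10, minus strand). It stood at 1576 CPM in EAE pDCs and 276 CPM in naive pDCs, 5.71-fold higher (4.66 to 7.05). Per 10000 UMIs it ran from 0 over a median of 14.4 to 79.1 in EAE cells and from 0 over 1.52 to 17.6 in naive cells. In all, 113 of 126 EAE cells lay above the naive median and 1 of 48 naive cells above the EAE median. Ly6c2 (chr15:75108158-75111970, minus strand), which encodes the Ly6C antigen also found on monocytes, stood at 1924 CPM in EAE pDCs and 611 CPM in naive pDCs, 3.15-fold higher (2.74 to 3.63). For Ly6c2, 105 EAE cells lay above the naive median and 3 naive cells above the EAE median.

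Ly6e, an interferon-induced gene of the same cluster, stood at 1824 CPM in EAE pDCs and 1021 CPM in naive pDCs, 1.79-fold higher (1.60 to 2.00), with 116 EAE cells above the naive median. Ly6d, which marks lymphoid progenitors that give pDCs and B cells, stood at 3524 CPM in EAE pDCs and 1782 CPM in naive pDCs, 1.98-fold higher (1.82 to 2.15). Ly6e and Ly6d stayed just inside the 2-fold line. Other members had few UMIs, with Ly6c1 at 3 UMIs in EAE pDCs and 0 in naive pDCs, and Ly6i at 12 UMIs in EAE pDCs and 2 in naive pDCs. Ly6k ran the other way, with 14 UMIs in EAE pDCs and 11 in naive pDCs, 2.80-fold lower in CPM (1.15 to 6.65). The sequences of Ly6 genes are alike, and reads that several of them share were not examined here. Without the cells that held 3 or more UMIs of other types, the log2 ratio was 2.07 for Ly6a, 1.25 for Ly6c2, 1.12 for Ly6d and 0.80 for Ly6e.

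The direction was not particular to pDCs. Ly6a had a log2 ratio of 5.70 in the conventional dendritic clusters mDC1 and mDC2 and 1.68 in T and NK cells, and Ly6c2 had 3.41 in those dendritic clusters and 0.90 in T and NK cells. At equal depth, a Ly6a UMI was found in 65.1% of EAE and 21.8% of naive pDCs, against 34.7% of EAE and 15.4% of naive T and NK cells, which express the gene themselves.

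**Figure D3:**
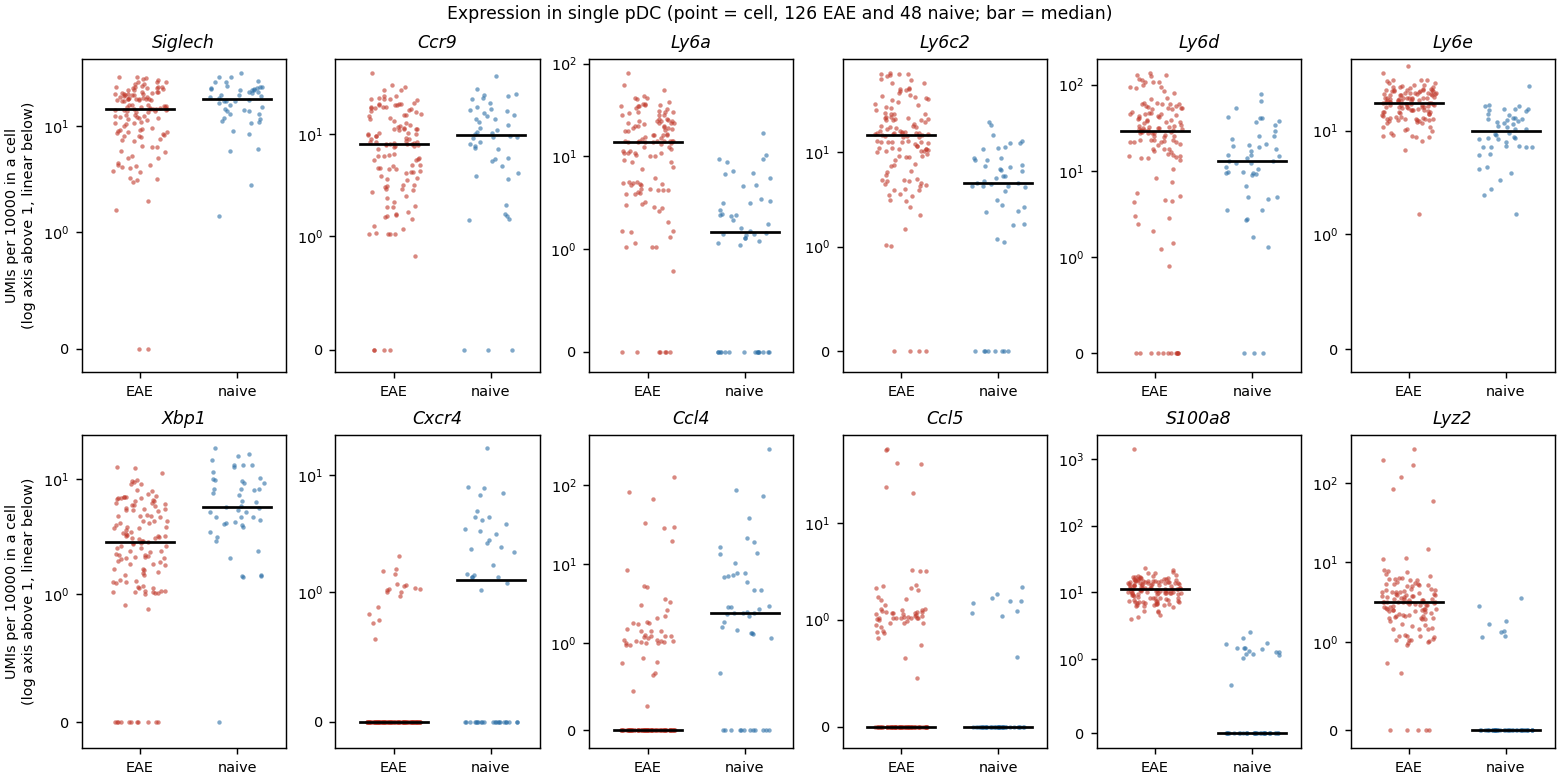
UMIs per 10000 UMIs of the cell for 12 genes (vertical axis logarithmic above 1 and linear below), each point 1 pDC and each bar the median, EAE (126 cells) left of naive (48 cells) in each panel. Ly6a, Ly6c2 and Ly6e lie higher in most EAE cells, Xbp1 and Cxcr4 lie higher in naive cells, and S100a8 is present in each EAE cell with 1 cell far above the others.

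Endosomal sensing genes were level. None of 21 compared was past 2-fold higher and 1 was past it lower, with a median log2 ratio of -0.16. Tlr7, the sensor of single-stranded RNA, stood at 52.4 CPM in EAE pDCs and 50.2 CPM in naive pDCs, and Tlr9, the sensor of unmethylated CpG DNA, had 4 UMIs in EAE pDCs and 2 in naive pDCs. Unc93b1, which carries both receptors to endosomes, stood at 734 CPM in EAE pDCs and 823 CPM in naive pDCs. Irf7, the factor through which pDCs switch on interferon genes, stood at 443 CPM in EAE pDCs and 287 CPM in naive pDCs, 1.54-fold higher (1.25 to 1.92). The gene below the line was Tnfaip3, a brake on NF-κB, with 20.3 CPM in EAE pDCs and 61.4 CPM in naive pDCs, and it was lower in T and NK cells as well (log2 ratio -1.64).

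Transcripts of interferons themselves were nearly absent. Of 20 type I and III interferon genes, none reached the level for comparison, and each interferon alpha gene had 0 UMIs in both groups, which allows up to 3 UMIs in each. Ifnb1, the interferon beta gene, had 1 UMI in EAE pDCs and 0 in naive pDCs. Ifnl2, a type III interferon gene, had 0 UMIs in EAE pDCs and 7 in naive pDCs, in 4 cells. Interferon transcripts below these limits were not detectable at this depth.

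Type I interferon response genes were mostly level. Of 17 compared out of 47, 4 were past 2-fold higher in EAE pDCs and none lower, with a median log2 ratio of 0.30. Over all compared genes, 5.33% were higher and 5.72% lower. The same list had a median log2 ratio of 1.08 in the conventional dendritic clusters and 0.51 in T and NK cells. Of the 47 genes, 9 had 0 UMIs in naive pDCs and 1 had 0 UMIs in EAE pDCs. Other members were level: Isg15 stood at 69.6 CPM in EAE pDCs and 66.9 CPM in naive pDCs and Stat2 at 73.5 CPM in EAE pDCs and 86.5 CPM in naive pDCs. All 24 naive Isg15 UMIs lay in 5 cells, the highest holding 11 and 10, while the 89 EAE UMIs lay in 35 cells. Ifi27l2a stood at 1031 CPM in EAE pDCs and 569 CPM in naive pDCs, inside the line.

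Of the 4 genes past the line, 3 were Ifitm genes, whose membrane proteins restrict virus entry. Ifitm1 stood at 320 CPM in EAE pDCs and 44.6 CPM in naive pDCs, 7.17-fold higher (4.36 to 12.7), and 1 EAE cell held 175 of its 409 EAE UMIs. Ifitm2 stood at 436 CPM in EAE pDCs and 64.1 CPM in naive pDCs, 6.80-fold higher (4.49 to 10.8). Ifitm3 stood at 683 CPM in EAE pDCs and 139 CPM in naive pDCs, 4.90-fold higher (3.68 to 6.65), and 1 naive cell held 42 of the 50 naive UMIs. Without the highest cell of each library the log2 ratio of Ifitm3 was 4.74, against 2.29 with it. These genes are abundant in neutrophils and monocytes, and in T and NK cells their log2 ratios were 6.32, 3.24 and 3.25. At equal depth an Ifitm3 UMI was found in 26.9% of EAE and 4.18% of naive pDCs, against 20.4% of EAE and 2.98% of naive T and NK cells. The part of free RNA in the Ifitm values was not tested. Slfn8 was the remaining gene, with 42.2 CPM in EAE pDCs and 19.5 CPM in naive pDCs, and its interval (0.981 to 5.63-fold) reached below 1.

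Interferon gamma response genes showed 1 of 11 higher, which was Ly6a, and 3 lower, with a median log2 ratio of 0.20. The 3 lower genes had few UMIs. Iigp1, an interferon-inducible GTPase, had 42 UMIs in EAE pDCs and 34 in naive pDCs, and the naive UMIs came from 4 cells. It was 2.89-fold lower in EAE pDCs (1.78 to 4.65). Irgm1, a GTPase of the same family, stood at 28.9 CPM in EAE pDCs and 58.6 CPM in naive pDCs, and the cytokine signalling inhibitor Socs1 at 19.6 CPM in EAE pDCs and 53.0 CPM in naive pDCs.

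Antigen presentation genes stayed inside the line in both arms. None of 11 class II genes and none of 16 class I genes was past 2-fold, with median log2 ratios of 0.25 and 0.19. Cd74, the invariant chain that guides class II molecules, stood at 9105 CPM in EAE pDCs and 9118 CPM in naive pDCs. H2-Aa, a class II alpha chain, stood at 2534 CPM in EAE pDCs and 2736 CPM in naive pDCs, and H2-K1, a class I heavy chain, at 2225 CPM in EAE pDCs and 1375 CPM in naive pDCs. Of 7 compared costimulation and maturation genes, Traf1 was past 2-fold higher, with 63 UMIs in EAE pDCs and 6 in naive pDCs. Cd200, which encodes an inhibitory ligand, was past it lower, with 46.1 CPM in EAE pDCs and 97.6 CPM in naive pDCs. Cd83, a marker of dendritic cell maturation, stood at 116 CPM in EAE pDCs and 148 CPM in naive pDCs.

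Receptors that restrain pDC activation, and their signalling chain, were mostly level, with 1 of 18 higher, none lower and a median log2 ratio of -0.09. Pirb, an inhibitory receptor for class I molecules, stood at 117 CPM in EAE pDCs and 22.3 CPM in naive pDCs, 5.22-fold higher (2.58 to 12.3), and at 1000 UMIs per cell its shares were 10.2% of EAE and 2.11% of naive pDCs, against 1.12% of EAE and 0.150% of naive T and NK cells. Tyrobp, the DAP12 adaptor of Siglech, stood at 4584 CPM in EAE pDCs and 4772 CPM in naive pDCs. Blnk, the B cell linker protein that pDCs use in the same cascade, stood at 416 CPM in EAE pDCs and 700 CPM in naive pDCs, 1.68-fold lower (1.44 to 1.96).

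The secretory pathway leaned towards the naive cells. Of 24 compared genes, none was past 2-fold higher in EAE pDCs and 4 were lower, with a median log2 ratio of -0.31, and 15 of the 24 were below 0. Xbp1, the unfolded protein response factor that pDCs share with plasma cells, stood at 352 CPM in EAE pDCs and 736 CPM in naive pDCs, 2.09-fold lower (1.79 to 2.44). Per 10000 UMIs it ran from 0 over a median of 2.86 to 12.7 in EAE cells and from 0 over 5.79 to 18.6 in naive cells. The ranges overlap, with 28 of 126 EAE cells above the naive median and 41 of 48 naive cells above the EAE median. Herpud1, of the degradation arm, stood at 478 CPM in EAE pDCs and 1001 CPM in naive pDCs, 2.10-fold lower (1.83 to 2.39). Ddit3, the stress factor CHOP, stood at 128 CPM in EAE pDCs and 407 CPM in naive pDCs, 3.18-fold lower (2.52 to 3.99), and the chaperone partner Sdf2l1 stood at 82.1 CPM in EAE pDCs and 209 CPM in naive pDCs. In T and NK cells Xbp1 had a log2 ratio of -0.22 and Ddit3 of -0.45, in conventional dendritic cells 0.82 and 0.19, while the median of the list was -0.41 in T and NK cells.

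Stress genes known to react to tissue dissociation were lower in EAE pDCs as well. Of 18 compared, none was past 2-fold higher and 7 were lower (Fos, Junb, Atf3, Hspa1b, Hsp90aa1, Zfp36 and Nr4a1), with a median log2 ratio of -0.84. The list had a median of -0.66 in conventional dendritic cells and -1.01 in T and NK cells, so the direction was shared by other cells of the libraries. Zfp36, an mRNA decay factor, stood at 173 CPM in EAE pDCs and 569 CPM in naive pDCs. Hspa1b, an inducible heat shock gene, had 1 UMI in EAE pDCs and 22 in naive pDCs, a ratio of 78.5-fold lower with an interval of 12.7 to 3238. The part of handling in the lower Ddit3, Xbp1 and Ccl4 values was not tested.

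**Figure D4:**
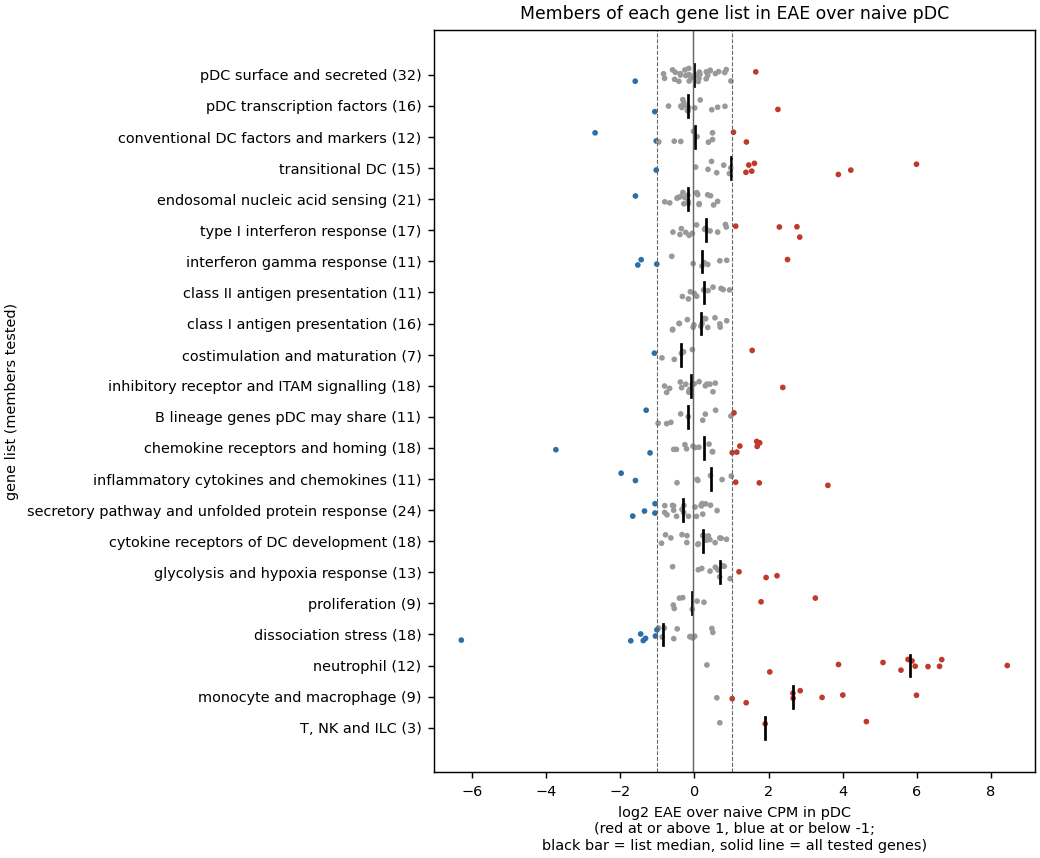
Log2 ratio of EAE over naive pDCs for each compared member of the gene lists (number compared in brackets), with the list median as a black bar, the median of all compared genes as a solid line and dashed lines at 2-fold. The pDC surface list centres at -0.02, the dissociation stress list at -0.84 and the neutrophil list at 5.82.

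Homing genes differed in both directions, more often upwards, with 6 of 18 past 2-fold higher in EAE pDCs, 2 lower and a median log2 ratio of 0.26. The same list had a median of 0.58 in conventional dendritic cells and 0.10 in T and NK cells. All compared genes had medians of 0.40 and 0.11 in those cells. Over all compared genes, 5.33% were higher and 5.72% lower. Cxcr4, the CXCL12 receptor that holds leukocytes in marrow, stood at 15.6 CPM in EAE pDCs and 209 CPM in naive pDCs, 13.4-fold lower (8.08 to 23.1). It was detected in 15.1% of EAE pDCs and 54.2% of naive pDCs. Its shares at 1000 UMIs were 1.66% of EAE and 16.7% of naive pDCs, against 4.90% of EAE and 16.4% of naive T and NK cells, in which the gene is also expressed and had a log2 ratio of -2.19. Klf2, which drives genes of tissue egress, stood at 171 CPM in EAE pDCs and 393 CPM in naive pDCs, 2.30-fold lower (1.85 to 2.85).

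The 6 higher homing genes were the chemokine receptors Ccr2, Cxcr3 and Cmklr1, the sphingosine phosphate receptor S1pr4, and the beta integrins Itgb1 and Itgb2. Itgb1 stood at 104 CPM in EAE pDCs and 30.7 CPM in naive pDCs, 3.39-fold higher (1.83 to 6.96), and Itgb2 at 135 CPM in EAE pDCs and 41.8 CPM in naive pDCs, 3.23-fold higher (1.91 to 5.90). S1pr4 stood at 62.6 CPM in EAE pDCs and 19.5 CPM in naive pDCs. Cmklr1, the receptor for chemerin, stood at 58.7 CPM in EAE pDCs and 25.1 CPM in naive pDCs. Cxcr3, the receptor for interferon-induced chemokines, stood at 49.3 CPM in EAE pDCs and 22.3 CPM in naive pDCs. Ccr2, a receptor that monocytes use, stood at 124 CPM in EAE pDCs and 61.4 CPM in naive pDCs, and 1 EAE cell held 23 of its 159 UMIs.

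Among 11 inflammatory cytokine and chemokine genes, 3 were past 2-fold higher in EAE pDCs (Il1b, Cxcl2 and Ccl5) and 2 lower (Ccl4 and Tnfaip3), with a median log2 ratio of 0.43. The list median was -0.26 without the cells holding 3 or more UMIs of other types. Ccl4, a chemokine that activated pDCs secrete, stood at 362 CPM in EAE pDCs and 1428 CPM in naive pDCs, 3.94-fold lower (3.47 to 4.48). A few cells carried most of it. In EAE pDCs 6 cells held 80.1% of 463 Ccl4 UMIs, and in naive pDCs 6 cells held 79.5% of 512, with 222 in 1 cell. The median per 10000 UMIs was 0 in EAE cells and 2.40 in naive cells. Its log2 ratio was -1.98 with all cells and -3.74 without the cells holding 3 or more UMIs of other types. Ccl4 was lower in EAE dura in other cells too, with log2 ratios of -2.26 in T and NK cells and -2.33 in neutrophils. It had -2.27 in myeloid1, -3.56 in mDC2 and -0.904 in mDC1, so the direction was not particular to pDCs.

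Ccl5, a chemokine of T and NK cells, stood at 339 CPM in EAE pDCs and 27.9 CPM in naive pDCs, and 6 EAE cells held 83.6% of its 433 UMIs. Its log2 ratio was 3.60 with all cells and 0.28 without the cells holding 3 or more UMIs of other types. The Ccl5 shares of pDCs at 1000 UMIs (9.85% in EAE, 3.01% in naive) lay below those of T and NK cells (49.6% in EAE, 24.4% in naive), which express it. Il12a, which encodes the p35 chain of IL-12, stood at 50.0 CPM in EAE pDCs and 25.1 CPM in naive pDCs, and its interval (0.987 to 4.56-fold) reached below 1.

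Glycolytic genes were higher in part, with 3 of 13 past 2-fold higher (Pkm, Eno1 and Pfkp), none lower and a median log2 ratio of 0.68. Eno1, which encodes enolase, stood at 171 CPM in EAE pDCs and 44.6 CPM in naive pDCs, 3.82-fold higher (2.30 to 6.80). Pkm, the pyruvate kinase of blood cells, stood at 366 CPM in EAE pDCs and 159 CPM in naive pDCs, with a log2 ratio of 1.20 over all cells and 0.64 without the cells holding 3 or more UMIs of other types. The list had a median log2 ratio of 0.72 in conventional dendritic cells and 0.92 in T and NK cells. Receptors for cytokines of dendritic cell development were level, with none of 18 past 2-fold. Flt3, the receptor whose ligand drives pDC formation, stood at 97.7 CPM in EAE pDCs and 75.3 CPM in naive pDCs.

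Transcripts of cell division were found in few pDCs. Top2a, a topoisomerase of dividing cells, was detected in 13 of 126 EAE pDCs and 1 of 48 naive pDCs. At 1000 UMIs per cell Top2a was in 2.69% of EAE and 0.596% of naive pDCs, below the 5.86% of EAE and 1.28% of naive T and NK cells. Of 9 compared proliferation genes, 2 were higher (Top2a and Hist1h2ap) and none lower, with a median log2 ratio of -0.06.

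Genes of transitional dendritic cells, a population between pDCs and conventional cells, included 7 of 15 past 2-fold higher in EAE pDCs and 1 lower, with a median log2 ratio of 0.98. Several of them are also genes of neutrophils, monocytes or T cells. Lyz2, lysozyme, stood at 1955 CPM in EAE pDCs and 30.7 CPM in naive pDCs, and 6 EAE cells held 84.8% of its 2500 UMIs. Lyz2 was at equal depth in 31.6% of EAE and 2.98% of naive pDCs, against 30.4% of EAE and 4.67% of naive T and NK cells, so the pDC shares are close to those of cells that should lack the gene. The shares of S100a4 (5.44% of EAE and 0.460% of naive pDCs), Anxa2 (13.4% of EAE and 5.50% of naive pDCs) and Crip1 (39.9% of EAE and 18.3% of naive pDCs) also lay below those of T and NK cells of the same library, some of which express these genes. For Anxa1, 1 EAE cell held 118 of 158 UMIs. Cd8a, a marker of a subset of dendritic cells, stood at 168 CPM in EAE pDCs and 64.1 CPM in naive pDCs, 2.62-fold higher (1.70 to 4.22), and its shares at 1000 UMIs, 12.7% of EAE and 5.53% of naive pDCs, lay above the 3.29% of EAE and 2.89% of naive T and NK cells.

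The largest ratios belonged to genes of other leukocytes. Of the 15 genes with the largest ratio by the near bound of the interval, 9 were on the neutrophil list and Lyz2 was on the monocyte and macrophage list. Of 12 compared neutrophil genes, 11 were past 2-fold higher in EAE pDCs and none lower, with a median log2 ratio of 5.82. The same list had a median of 4.53 in conventional dendritic cells and 4.92 in T and NK cells. S100a8, a calcium-binding alarmin of neutrophils, had 6560 UMIs in EAE pDCs and 18 in naive pDCs, and 1 EAE cell with 36282 UMIs and 71 neutrophil marker UMIs held 5142 of them. The next highest EAE cell had 38, the median EAE cell 11, and all 126 EAE cells had at least 1, against 16 of 48 naive cells. At 1000 UMIs per cell an S100a8 UMI was found in 67.9% of EAE pDCs and 4.72% of naive pDCs, and in 71.2% of EAE and 5.48% of naive T and NK cells, so the pDC shares do not exceed those of cells that should lack the gene. For Lcn2, an iron-scavenging protein of neutrophil granules, with 1243 UMIs in EAE pDCs and 1 in naive pDCs, the ratio of 348 had an interval of 62.4 to 13776, and 1 EAE cell held 978 of the UMIs.

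Of 9 compared monocyte and macrophage genes, 8 were past 2-fold higher, with a median log2 ratio of 2.66, and 2.59 in T and NK cells. C1qa, a complement chain of macrophages, had 229 UMIs in EAE pDCs, 83.0% of them in 6 cells, and 4 UMIs in naive pDCs. At 1000 UMIs per cell it was in 6.53% of EAE and 0.950% of naive pDCs, against 7.24% of EAE and 1.09% of naive T and NK cells. Tgfbi was absent from naive pDCs and had 97 UMIs in EAE pDCs, which makes it at least 9.07-fold higher with 3 counts set for the 0, and Hp and Anxa1 were likewise at least 21.0-fold and 14.8-fold higher. The lower bounds of the exact intervals were 7.23 for Tgfbi, 17.0 for Hp and 11.9 for Anxa1. Of the 3 compared T, NK and innate lymphoid genes, 2 were higher (Trbc2 and Cd4), and the list median of 1.91 was -0.088 without the cells holding 3 or more UMIs of other types, when 1 gene of the list was left. Trbc2, a T cell receptor constant gene, had 89 UMIs in 14 EAE pDCs and 1 UMI in naive pDCs.

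At the other end, the genes with the smallest ratio included Cxcr4, Hspa1b and Ccl4, and several without a place on a list. Plaur, the urokinase receptor, stood at 246 CPM in EAE pDCs and 968 CPM in naive pDCs, 3.93-fold lower (3.36 to 4.59). Plaur was lower in EAE dura in several other clusters too, with log2 ratios of -1.75 in mDC2, -1.64 in Bc, -1.08 in neutrophils and -0.79 in myeloid1, and it had 0.15 in mDC1 and 0.34 in T and NK cells. Cebpb, a factor of myeloid and stress responses, stood at 116 CPM in EAE pDCs and 494 CPM in naive pDCs, 4.27-fold lower (3.41 to 5.34). Slc7a5, a carrier of large amino acids, stood at 16.4 CPM in EAE pDCs and 106 CPM in naive pDCs, 6.45-fold lower (3.69 to 11.6). Mt1, a metallothionein, stood at 156 CPM in EAE pDCs and 619 CPM in naive pDCs. The direction of Cebpb, Slc7a5 and Mt1 was shared by other cells of the libraries. In conventional dendritic cells their log2 ratios were -1.39, -1.32 and -2.90, and in T and NK cells -2.34, -1.59 and -0.55.

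Xist, the RNA that silences an X chromosome in female cells, had 0 UMIs in EAE pDCs and 120 in naive pDCs, at least 143-fold lower with 3 counts set for the 0, and with a lower interval bound of 114. The other cells showed 0 CPM in EAE dura and 243 CPM in naive dura. The Y-linked gene Ddx3y stood at 73.5 CPM in EAE pDCs and 25.1 CPM in naive pDCs, and Eif2s3y at 69.6 CPM in EAE pDCs and 22.3 CPM in naive pDCs. The sex make-up of the pools and the disease cannot be told apart for any gene in these libraries.

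Genes that pDCs share with the B lineage were compared as a list of 11, of which 1 was past 2-fold higher, 1 lower, with a median log2 ratio of -0.17. Dntt stood at 222 CPM in EAE pDCs and 106 CPM in naive pDCs, 2.10-fold higher (1.49 to 3.02), against 1.33 CPM in the other EAE cells and 0.546 CPM in the other naive cells. It was detected in 73.0% of EAE pDCs and 43.8% of naive pDCs. Ralgps2, a B cell-rich exchange factor, was the lower one, with 30.5 CPM in EAE pDCs and 75.3 CPM in naive pDCs. Iglc3, a lambda light chain constant gene, stood at 322 CPM in EAE pDCs and 636 CPM in naive pDCs, 1.97-fold lower (1.67 to 2.33). In EAE dura its level in pDCs exceeded the 296 CPM of the cluster cswBc and the 265 CPM of the cluster Bc.

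Ighm, the constant gene of the IgM heavy chain, stood at 722 CPM in EAE pDCs and 934 CPM in naive pDCs, and was detected in 97.6% of EAE pDCs and 97.9% of naive pDCs. The Ighm shares at 1000 UMIs were 50.1% of EAE and 54.8% of naive pDCs, against 7.62% of EAE and 9.50% of naive T and NK cells. In EAE dura only cswBc, at 67912 CPM, and Bc, at 1530 CPM, were higher. Igkc, the kappa constant gene, stood at 298 CPM in EAE pDCs and 335 CPM in naive pDCs. Its shares at 1000 UMIs were 21.2% of EAE and 23.0% of naive pDCs, against 10.6% of EAE and 21.2% of naive T and NK cells, so in naive dura the Igkc share was close to that of T and NK cells.

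Assembled immunoglobulin receptor transcripts (contigs) were deposited for both conditions. Per the labels' protocols they were enriched from the same droplet complementary DNA, which the barcodes do not bear out for the naive set. Of 1185 barcodes with a contig in the EAE set, 877 matched the EAE expression library. Of 159 in the naive set, 0 matched either expression library, so naive pDCs have no receptor value, and which cells the naive set belongs to is not known here. In EAE dura 45 of 126 pDC barcodes (35.7%, 27.4 to 44.7%) carried a contig, each with a light chain and 27 with a heavy chain. The share in 15 other clusters not named for the B lineage ranged from 5.26 to 19.0%, or 718 of 4343 barcodes (16.5%, 15.4 to 17.7%). The clusters named for the B lineage, Bc, cswBc and BcProg, stood at 72.0%, 27.3% (3 of 11 barcodes) and 14.9%. In EAE dura BcProg had 14697 CPM of Lyz2, 97.5 CPM of Cd79a and 5.04 CPM of Ms4a1. These markers do not bear out its name in that library, so its share is not that of a B cell cluster. The 91 unannotated Siglech barcodes, with 37 carrying a contig (40.7%), were close to the annotated pDCs.

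The 230 contigs of pDC barcodes (170 kappa, 50 heavy and 10 lambda) came down to 41 different combinations of chain, V segment, J segment and junction, and 40 of the 41 were also found on a barcode of another cluster. The 7 most frequent junctions on pDC barcodes (CDR3, the part that differs most between receptors) were on 13 to 44 of the 126 barcodes each. They are printed here because the same bases recur on many barcodes of unlike cells, with the first and last codon in capitals. All 45 pDC barcodes with a contig carried at least 1 of the 7.
IGKV15-103: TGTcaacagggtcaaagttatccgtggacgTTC
IGKV9-124: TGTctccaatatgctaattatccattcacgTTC
IGKV6-23: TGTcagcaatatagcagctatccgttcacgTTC
IGKV1-88: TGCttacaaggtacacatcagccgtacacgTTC
IGKV3-4: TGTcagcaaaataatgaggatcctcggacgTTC
IGHV8-8: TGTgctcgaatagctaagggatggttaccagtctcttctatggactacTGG
IGHV7-1: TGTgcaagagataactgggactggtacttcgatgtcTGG

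The IGKV15-103 junction, whose V segment lies at chr6:68437440-68437925 (mm10, plus strand), was on 44 of 126 pDC barcodes (34.9%) and on 683 of 4453 other annotated EAE barcodes (15.3%). It had a median of 19 UMIs (8 to 38) on pDC barcodes and 20 UMIs (1 to 73) on the others. The IGKV9-124 junction was on 34 pDC barcodes and 491 others, with a median of 8 UMIs on pDC barcodes and 10 on the others. The 2 heavy chain junctions came with different constant regions, IGHV8-8 with IGHA on 14 pDC barcodes and 215 others, and IGHV7-1 with IGHM on 13 pDC barcodes and 148 others. The remaining 3 kappa junctions were on 15 or 16 pDC barcodes each. Of the other barcodes with the IGKV15-103 junction, 105 were T or NK cells.

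In the expression library, Igkc stood at 315 CPM in the 45 with a contig and 288 CPM in the 81 without, and Ighm at 805 CPM with and 675 CPM without. Their median depths were 9559 UMIs with a contig and 9439 UMIs without. Whether the contigs on pDC barcodes came from the pDCs or from free RNA was not tested.

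**Figure D5:**
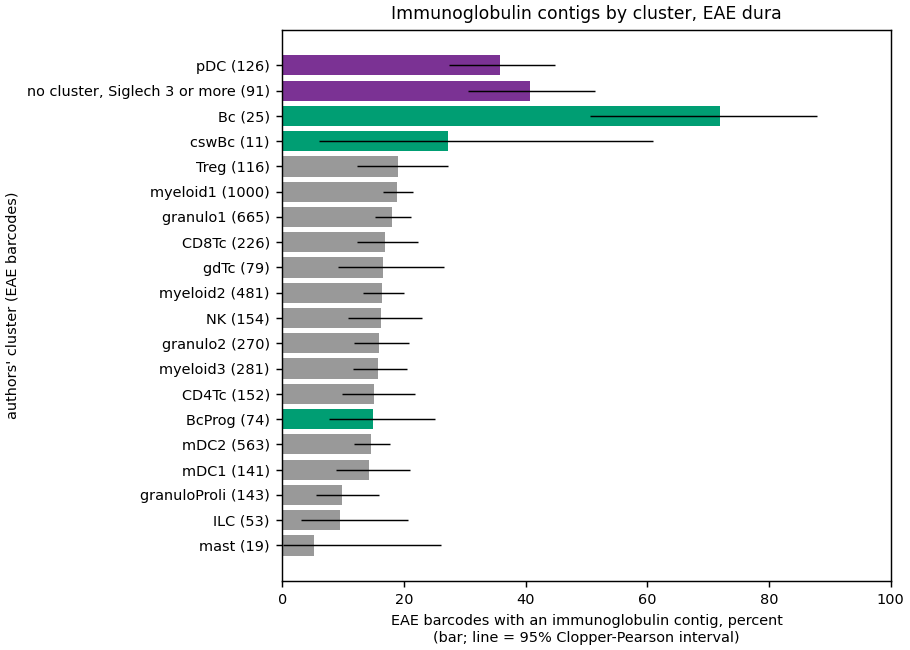
Percent of EAE barcodes of each cluster with an immunoglobulin contig (bars, number of barcodes in brackets, lines 95% Clopper-Pearson intervals), pDC barcodes in purple and clusters named for the B lineage in green. pDCs stand at 35.7% and unannotated Siglech barcodes at 40.7%, against 5.26 to 19.0% in clusters not named for the B lineage.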

How the data were processed

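The deposited values are UMI counts per gene and barcode. Per the submitters' processing notes, Cell Ranger 3.1.0 and the mouse build mm10 were used. Per the labels' protocols, the libraries were droplet 3′ libraries of sorted cells pooled from several mice, and receptor transcripts were enriched from the same complementary DNA. The naive receptor set shared no barcode with either expression library. The authors deposited a cluster name and a condition for each barcode, and UMI counts per receptor contig. How cells were filtered and clustered is not given in the sources used here, and no doublet caller was run.

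Here the counts of each gene were summed over the pDC barcodes of each library and divided by the group's total UMIs (CPM). With 1 library per condition there is no replicate error and no test. A ratio carries an exact conditional binomial 95% interval, and a share a Clopper-Pearson interval; both cover counting error only. Where 1 group had no UMI, 3 counts stood in for it. Genes with a mean of at least 30 CPM were compared, and a ratio of 2 or more either way was counted. Shares of cells at equal depth are the expected shares after drawing 1000 UMIs from each cell, and T and NK cells served as background.

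The text names list members, the 15 largest and 15 smallest ratios by the interval bound nearest 1, and the 20 genes leading pDCs over all other cells. The Ly6 group, the sex-linked genes and the genes of single outlying cells were chosen after their values were seen. Members and lists were chosen with earlier results of these data known. Alternatives changed the scaling (TMM, edgeR 4.0.16), the level filter, the cells and their weighting. Gene coordinates are from GENCODE M21 on mm10. Python 3.11.15, numpy 2.4.6, pandas 2.3.3, scipy 1.17.1 and R 4.3.3 were used. The ratio interval, the 2-fold count and the draw to equal depth were tested on simulated data, the other steps were not. The counts simulated for the ratios had no heaping of UMIs in single cells, so that test does not cover genes carried by a few cells.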

Additional observations from a re-analysis of the deposited data

Results flagged for a closer look

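Of the EAE barcodes without a cluster name, 91 held at least 3 Siglech UMIs, a signal in data that the comparison of annotated cells leaves out. The naive library had 1 such barcode. These 91 barcodes had 6360, 8871 and 50431 UMIs in the lowest, the median and the highest. Ly6a stood at 1702 CPM, Ly6c2 at 1918 CPM, Xbp1 at 445 CPM and Cxcr4 at 20.9 CPM in them. Of the 218 genes past 2-fold higher in annotated EAE over naive pDCs, 142 were also past it with these barcodes in place of the annotated EAE cells, and of the 234 lower genes 176 were. Both ratios use the same naive cells and the same EAE library, so these overlaps support nothing further.

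For 5 listed genes the EAE over naive ratio was past 2-fold in pDCs and ran the opposite way, also past 2-fold, in the conventional dendritic clusters mDC1 and mDC2 summed, and the difference between the cell types was not tested. Iigp1 had a log2 ratio of -1.53 in pDCs and 4.75 in conventional dendritic cells, where naive cells had 0 UMIs of it. Irgm1 had -1.02 in pDCs and 1.25 in conventional dendritic cells, and its value in pDCs was -0.12 without the cells holding 3 or more UMIs of other types. Il1b had 1.11 in pDCs and -1.35 in conventional dendritic cells, Cxcl2 had 1.75 in pDCs and -2.36 in conventional dendritic cells, and Cd14 had 2.85 in pDCs and -1.69 in conventional dendritic cells. For Cxcl2 only mDC2 ran the opposite way (-3.12), while mDC1 had 1.95. In T and NK cells Cd14 had a log2 ratio of 2.59, Il1b 0.98 and Iigp1 1.14, while Irgm1 had -0.41 and Cxcl2 -2.20. In EAE pDCs the highest cell held 29 of 108 Il1b UMIs, 18 of 60 Cxcl2 UMIs and 24 of 129 Cd14 UMIs.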

How the results depend on the processing

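No paired analysis was possible because each condition is 1 library, and for the same reason no replicate could be left out. The number of genes past 2-fold depended on the level filter, with 741 higher and 435 lower among 6605 genes with at least 20 UMIs, and 47 higher and 77 lower among 1491 genes with a mean of at least 100 CPM. Under TMM scaling, which moved ratios up by 0.07 on the log2 scale, 252 were higher and 192 lower. Without the 83 EAE and 11 naive cells holding 3 or more UMIs of other types, 316 genes were higher, 146 of them shared with the 218, and 328 lower, 168 of them shared with the 234. The setting itself counts markers of conventional dendritic cells, neutrophils, macrophages, T, NK and innate lymphoid cells, so lower medians of their lists are in part built in. Under that setting the list median was -0.71 for conventional dendritic genes, -0.26 for inflammatory genes, 3.44 for neutrophil genes, 1.71 for monocyte and macrophage genes and -0.088 for T, NK and innate lymphoid genes. Without cells holding 20 or more such UMIs, an alternative chosen after seeing the data like the next 2, the last 3 medians were 4.42, 1.35 and 1.30. Without the highest cell of each gene the neutrophil median was 4.36. With cells weighted equally it was 4.78, and the T, NK and innate lymphoid median was 1.29. The monocyte and macrophage median was 2.07 with the filter of 20 UMIs and 2.03 with that of 100 CPM, where the T, NK and innate lymphoid median was 0.68. The share of pDCs was 11.3% in EAE and 14.7% in naive dura among dendritic clusters, 3.60% in EAE and 1.82% in naive dura without neutrophil clusters, 4.34% in EAE and 1.57% in naive barcodes with the unannotated ones, and 2.75% in EAE and 5.95% in naive cells at or above the lowest EAE total. The cause of these shifts was not tested, apart from the fewer genes or cells each setting leaves. Of 306 list members and named genes, none past 2-fold changed direction under an alternative that kept it, but the filter of 100 CPM kept 191, and not all could be computed without the cells holding 3 or more UMIs of other types, where 60 moved and 223 did not. Naive pDCs gave 358535 UMIs in all, and the intervals of the low genes Slfn8 and Il12a, both near 2-fold, reach below 1. Promoter motifs were not run.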

Other observations

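A single unannotated Siglech barcode of the EAE library held all 11 Ifnb1 UMIs of that set, against 1 Ifnb1 UMI in the 126 annotated EAE pDCs and 0 in the 48 naive pDCs. For Elane and Camp, genes of neutrophil precursors, the highest barcode of the set held 363 of 388 and 1870 of 2071 UMIs. For S100a8 it held 7071 of 8129 UMIs. Whether these highest barcodes are the same one is not given here. Ube2c, a gene of dividing cells, had all 35 of its naive UMIs in 1 pDC.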
